A study of Mus musculus with 6 samples.

Results

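The genes described here encode the proteasome: the subunits of its 20S core and 19S regulatory particle, its other activators, an inhibitor-like regulator and its assembly chaperones. Members were the rows of the deposited count table whose symbol starts with Psm, followed by one letter from a to g and a number, without the immunoproteasome genes Psmb8, Psmb9 and Psmb10. This gave 46 of the 29872 gene symbols in the table, with 16 in the core, 17 in the regulatory particle and 13 in neither. The data set holds 6 bulk RNA-seq libraries of C57BL/6 mouse cells, in 3 replicates of chronic myeloid leukaemia cells (CML) and 3 of wild-type cells (WT). All came from untreated bone marrow cells that the labels call stem cells, sorted as Lin-Sca1+cKit+CD150+ and expanded ex vivo in an order the labels do not state. The sources used here do not give the transgene or promoter behind the CML cells, nor the age or number of the mice. Whether replicates are separate mice or cultures is likewise unstated, so the p-values describe only the spread among these 6 libraries, and part of that spread may be technical.

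The proteasome is the protease that degrades proteins tagged with ubiquitin. Its 20S core is a barrel of stacked rings, in which alpha subunits form the gated outer rings and beta subunits form the inner rings that hold the catalytic sites. The 19S particle caps the barrel: its base unfolds substrates with a ring of ATPases, and its lid removes ubiquitin chains before degradation. The transcription factor NFE2L1 is known to raise most of these genes together when proteasome activity falls. CML cells, like other leukaemic cells, are often studied for their sensitivity to proteasome inhibitors.

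Most of the proteasome genes did not pass the test between CML and WT cells. Of the 46 members 45 had enough counts to be tested, and 3 of them were lower in CML (edgeR quasi-likelihood test, Benjamini-Hochberg adjusted p under 0.05 over all genes): Psma3, Psmd14 and Psmg2. No member was higher by that test. At an unadjusted p under 0.05, 11 members were lower and 1 was higher, and by sign alone 31 fold changes were negative and 14 positive. DESeq2 and limma-voom also called 0 members higher and each called 4 lower. Over all 16221 tested genes 17.4% were called, 7.20% lower and 10.2% higher in CML, so the share of members called lower (6.67% of those tested) was near the background. The median log2 fold change, CML over WT, was -0.19 in the core, -0.03 in the regulatory particle and -0.09 in the remaining members, against -0.00 over all tested genes. When libraries were scaled by their totals these medians were -0.09, 0.07 and 0.01, against 0.09 over all tested genes, a shift that this scaling gives all genes alike. With trends with GC content and length removed in each library, a setting described below, the medians were -0.11, -0.12 and -0.12. Over all tested genes the median was then -0.00. In that setting the core no longer lay below the particle. The 95% interval of the fold change lay within a 2-fold change in either direction for 44 of the 45 members, and within a 1.5-fold change for 40.

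**Figure D1:**
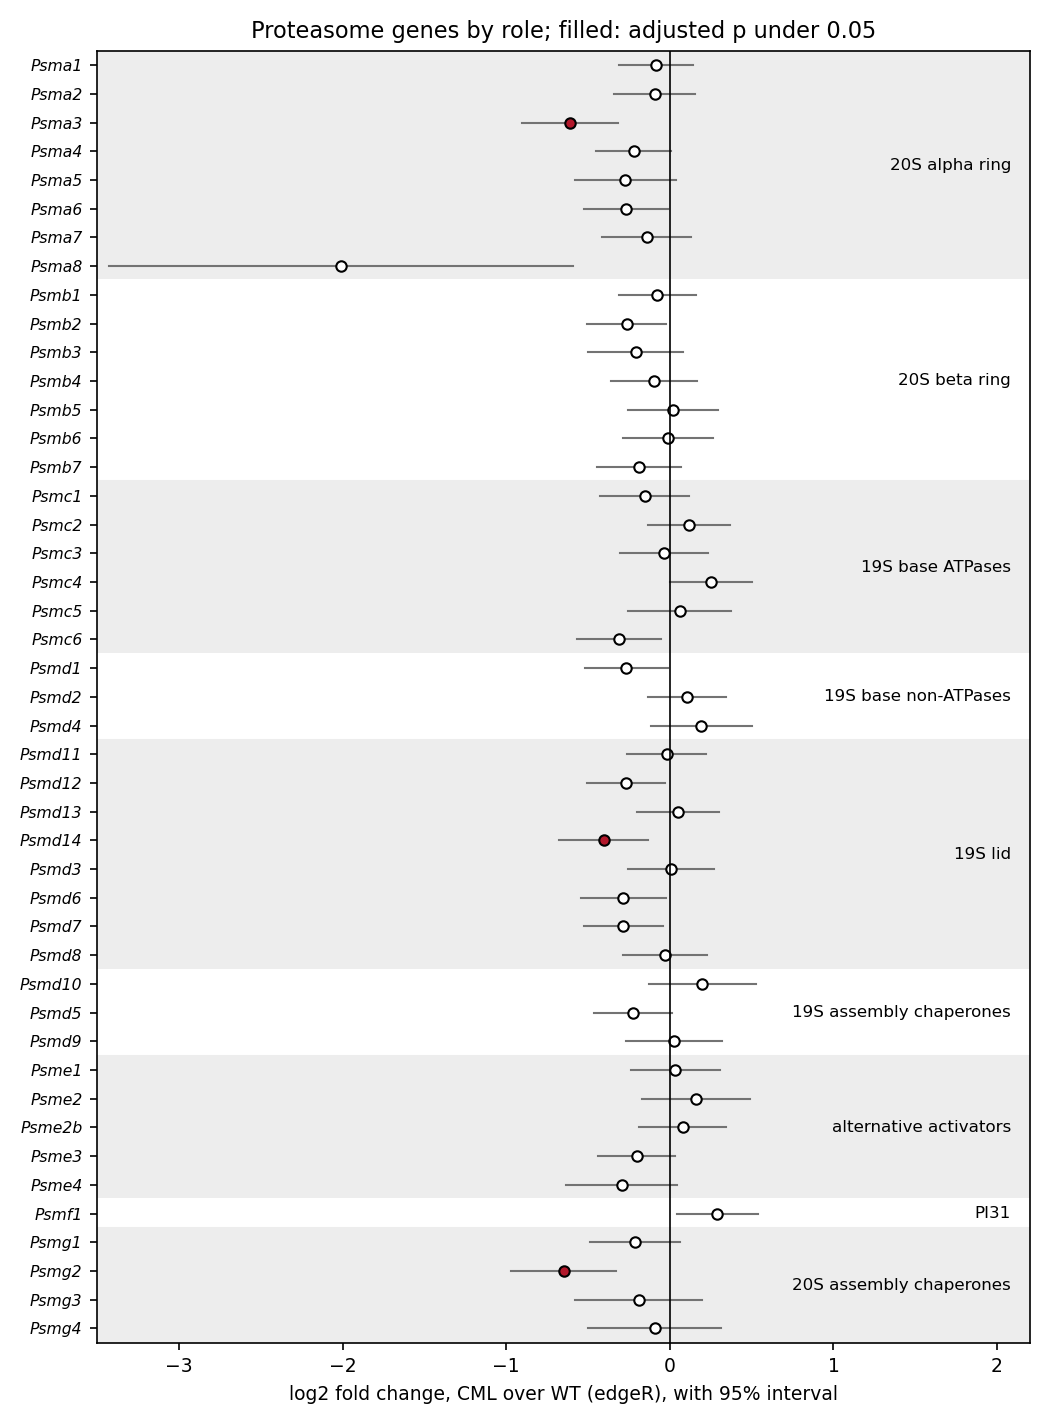
Log2 fold change, CML over WT, of the 45 tested proteasome genes by role, with 95% intervals (edgeR, 3 libraries per group). Filled points passed an adjusted p under 0.05: Psma3, Psmd14 and Psmg2, each lower in CML. The widest interval, from -3.43 to -0.59, is that of Psma8.

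The upstream sequences of Psma3 and Psmd14 are shown first, since both were called lower. All sequences were chosen after values were seen. RefSeq sequences (GRCm38.p6) of the 250 bases before the RefSeq start were matched for 38 of the 46 members. The gene coordinates given elsewhere come from GENCODE, which can place the start differently. Psma8, Psmb1, Psmb2, Psmb7, Psmc3, Psmd3, Psmd7 and Psmg2 had no entry. The letters CCAAT, the box bound by NF-Y, were searched on both strands and are in capitals.
Psma3, chr12:70974373-70974622, plus strand: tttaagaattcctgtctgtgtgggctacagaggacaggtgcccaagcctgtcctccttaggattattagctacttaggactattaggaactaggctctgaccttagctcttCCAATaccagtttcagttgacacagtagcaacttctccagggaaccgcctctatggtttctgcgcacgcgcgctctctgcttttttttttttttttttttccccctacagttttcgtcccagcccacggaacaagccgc
Psmd14, chr2:61711444-61711693, plus strand: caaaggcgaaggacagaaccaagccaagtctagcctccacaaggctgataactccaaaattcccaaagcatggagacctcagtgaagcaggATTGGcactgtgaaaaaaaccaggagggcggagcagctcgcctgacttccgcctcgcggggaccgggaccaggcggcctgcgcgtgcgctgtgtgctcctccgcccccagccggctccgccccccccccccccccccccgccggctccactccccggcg
In Psma3 the box lies 135 to 139 bases before the start and in Psmd14, on the other strand, 155 to 159 bases before it. CCAAT was found in 13 of the 38 members (34.2%) and in 33.8% of all 32851 promoters of that length.

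A second set shows letters that other members hold and these 2 lack. The antioxidant response core TGACNNNGC, through which NFE2L1 and NFE2L2 act, was found in 5 of the 38 members (13.2%; 10.2% of all promoters): Psmb5, Psmb6, Psmc6, Psmd9 and Psmd12. The ETS core CCGGAAG was found in 12 members (31.6%, against 6.91% of all promoters). Of these, 8 were among the 14 matched genes of the regulatory particle and 1 among the 12 of the core. The share over promoters of tested genes alone was not computed. In 9 of the 12 genes an ETS core lay within 100 bases of the start. Searched motifs are in capitals in these 50-base stretches, and the ETS core is printed on its other strand.
Psmb5, chr14:54618013-54618062, minus strand: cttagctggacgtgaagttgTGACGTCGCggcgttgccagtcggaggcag
Psmb6, chr11:70525307-70525356, plus strand: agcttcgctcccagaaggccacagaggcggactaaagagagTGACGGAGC
Psmc1, chr12:100110152-100110201, plus strand: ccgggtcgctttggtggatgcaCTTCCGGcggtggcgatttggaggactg
Psmd2, chr16:20651602-20651651, plus strand: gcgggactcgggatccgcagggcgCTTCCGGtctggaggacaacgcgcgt
These are matches of letters, not sites of binding. By the GENCODE coordinates Psmc1 starts at 100110154, so most of its stretch lies inside the gene. Psmb5, on the minus strand, reaches 54618022 and so overlaps part of its stretch. None of these 4 genes passed the test: their log2 fold changes were 0.02 for Psmb5, -0.01 for Psmb6, -0.15 for Psmc1 and 0.11 for Psmd2.

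Before the members are described, some facts of the whole series bear on them. Library totals ran from 13323552 to 17926866 counts, and the members took 0.365% to 0.409% of each library's counts. Levels are given as CPM, the share of a library's counts on the scale of edgeR's cpm function, with TMM (trimmed mean of M values) scaling. Markers of other cell types differed between the groups: of the mast cell and basophil list all 12 genes were tested and 7 were higher in CML, with summed levels of 2089 to 7323 CPM in CML and 184 to 375 CPM in WT, and Mcpt1 at 0 in WT. Of 10 monocyte and macrophage genes 5 were higher, with sums of 363 to 434 CPM against 240.4 to 303 CPM. Of 12 genes of dividing cells 2 were lower in CML and 0 higher (1787 to 2032 CPM against 2121 to 2650 CPM). Of 7 tested erythroid genes 3 were higher and 1 lower (191 to 264 CPM against 58.1 to 70.6 CPM for the list), of 6 dendritic cell genes 2 were higher (42.2 to 89.1 against 23.1 to 46.0 CPM), of 2 lymphoid genes 1 was higher (31.6 to 40.2 against 11.9 to 17.0 CPM), and of 7 neutrophil genes 0 passed (155.8 to 259 against 128 to 252 CPM; 1 lower at an unadjusted p under 0.05). Aqp1 held most of the erythroid sum in CML, at 163 to 255 CPM against 6.99 to 9.78 CPM in WT. The erythroid gene called lower was Hbb-bs, at 6.09 to 17.3 CPM in CML and 48.2 to 57.2 CPM in WT. The lymphoid genes Cd3e, Cd3g and Cd79a had 3 counts or fewer in every library. In bulk RNA fewer cells of a type and less RNA per cell cannot be told apart, and the part of cell type makeup in the results below was not tested. Of the 3 genes behind the sort 1 passed: Slamf1, the gene of CD150, was lower in CML (log2 fold change -0.80, adjusted p = 0.0470, edgeR). Ly6a, the gene of Sca1, had the opposite sign, at 81.7, 172 and 65.3 CPM in CML and 40.03, 52.4 and 64.2 CPM in WT, without overlap and without passing (log2 fold change 1.03, adjusted p = 0.173, edgeR). Kit did not pass (log2 fold change 0.08, adjusted p = 0.842, edgeR).

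The libraries also differed in how their counts followed the GC content of transcripts, and this touches every fold change below. Across all tested genes with a GC value, the deviation of a library from the mean of all libraries had a Spearman coefficient with GC of -0.46 in WT replicate 1 and -0.37 in WT replicate 2. It was 0.28 in WT replicate 3 and 0.17, 0.20 and 0.28 in CML replicates 1, 2 and 3, so WT replicate 3 lay on the side of the CML libraries. Over the 45 tested members the coefficients were -0.52, -0.52 and 0.34 in WT replicates 1, 2 and 3 and 0.24 to 0.40 in CML. The log2 fold change of the members rose with GC (Spearman 0.45 across the 45 genes, which share the 6 libraries), as it did across 15805 tested genes (0.30). With the trends with GC and length removed in each library, a setting chosen after seeing the data, Psma3 and Psmg2 passed and Psmd14 did not.

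**Figure D2:**
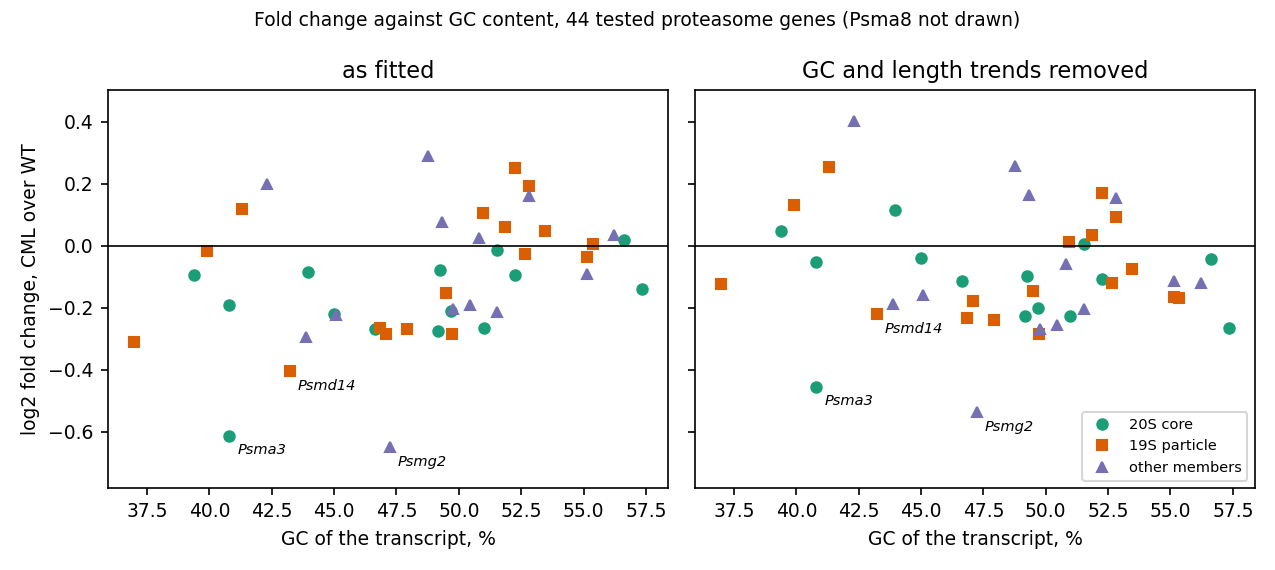
Log2 fold change, CML over WT, against the GC content of the transcript for 44 tested proteasome genes (Psma8, at -2.01, is not drawn), as fitted and with per-library trends with GC and length removed. Genes of low GC lie lower in the plot of values as fitted. With the trends removed, Psma3 (-0.45) and Psmg2 (-0.54) stay lowest and Psmd14 moves to -0.22.

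Each of the 8 alpha ring genes had a negative fold change, 1 of them passed the test, and 6 of the 8 were negative when scaled by library totals or with GC and length trends removed. That gene was Psma3 (chromosome 12, 70974621 to 70996347, GRCm38, plus strand), which encodes an alpha subunit of the outer ring. In the order of replicates 1, 2 and 3, which holds throughout, it was at 60.4, 49.8 and 48.0 CPM in CML and at 84.8, 88.5 and 68.6 CPM in WT. Every CML library lay below every WT library, and WT replicate 3 was the nearest to CML. The log2 fold change was -0.61 (SE 0.14, adjusted p = 0.00789, edgeR), and -0.45 with GC and length trends removed (adjusted p = 0.00834, edgeR). Without WT replicate 2 it missed the threshold (-0.55, adjusted p = 0.0531, edgeR). As a share of the counts of Psma1 to Psma7, a quantity that does not depend on scaling, Psma3 made up 7.66%, 6.81% and 6.48% in CML and 9.64%, 10.2% and 8.12% in WT. The share does not remove the GC trend: Psma3 has 40.8% GC, and these genes run from 39.4% (Psma2) to 57.4% (Psma7).

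The other constitutive alpha genes did not pass. Psma1, the most abundant by CPM in the ring, was at 271, 267 and 267 CPM in CML and 289, 285 and 279.5 CPM in WT. The CML values all lay below WT by a log2 fold change of -0.08 (95% interval -0.31 to 0.14). Psma6, the highest member of the core per length, was at 179, 159 and 177 CPM in CML and 230.0, 207 and 183 CPM in WT (-0.27, adjusted p = 0.140, edgeR). Psma4 had a log2 fold change of -0.22, Psma7 of -0.14 and Psma2 of -0.09. Psma7 passed in the fit with GC and length trends removed (-0.27, adjusted p = 0.0489, edgeR) and in no other setting run.

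Psma5 was counted beside a copy. The table has a separate row for Psma5-ps, a pseudogene on chromosome 10 in RefSeq, with 72.2 to 79.5 CPM in CML and 89.6 to 101 CPM in WT. Psma5 itself stood at only 22.2, 18.3 and 17.3 CPM in CML and 22.1, 25.0 and 22.8 CPM in WT. The sources used here do not give how reads shared between them were divided, so the level of Psma5 alone is uncertain. Summed with its copy, Psma5 was at 102, 97.4 and 89.6 CPM in CML and 123, 118 and 112 CPM in WT. On the log2 scale this was -0.29 (SE 0.11, adjusted p = 0.0820, edgeR). The sum did not pass, and its CML values all lay below WT.

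Psma8, a paralogue of Psma7 best known from the testis, had the largest fold change of all members and did not pass. It was at 4.96, 1.53 and 1.31 CPM in CML, which are 79, 21 and 21 counts, and at 14.6, 11.6 and 5.61 CPM in WT, which are 244, 184 and 90 counts. The groups did not overlap, but CML replicate 1 and WT replicate 3 were close to each other. The log2 fold change was -2.01 (SE 0.59, 95% interval -3.43 to -0.59, adjusted p = 0.0638, edgeR). Psma8 passed with DESeq2 (adjusted p = 0.0266), with limma-voom (0.0149), without CML replicate 1 (-2.90, 0.000897, edgeR) and without WT replicate 3 (-2.32, 0.0377, edgeR). Per 100 counts of Psma7 there were 6.29, 2.15 and 1.89 counts of Psma8 in CML and 20.4, 15.01 and 6.00 in WT, and on this measure the groups overlap.

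**Figure D3:**
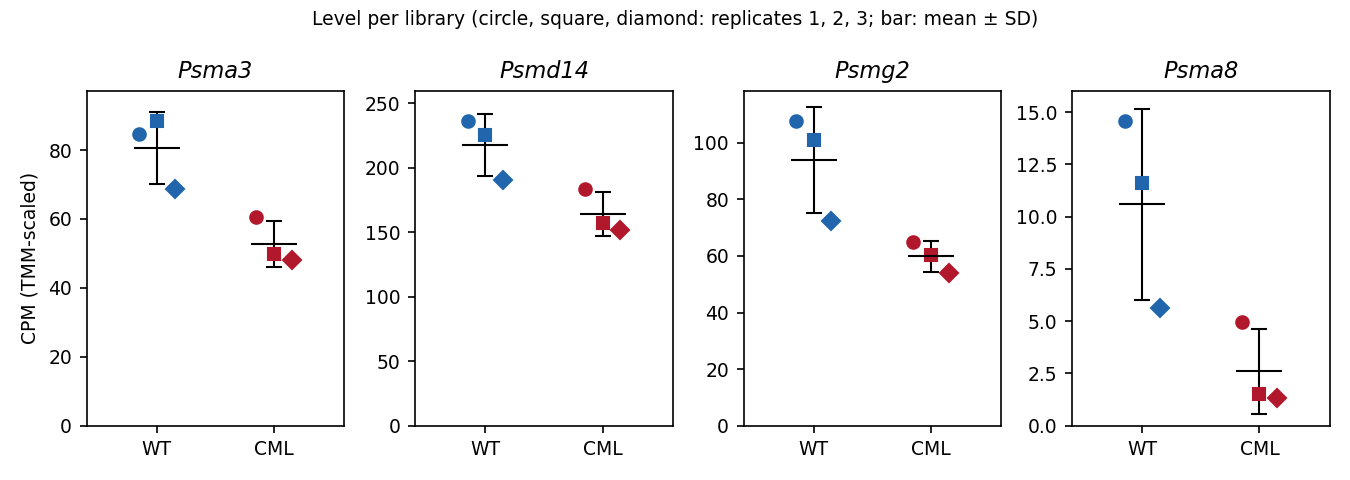
TMM-scaled CPM per library of Psma3, Psmd14, Psmg2 and Psma8 in WT and CML, with the mean and SD (n = 3 libraries). The CML values lie below the WT values in each plot, and WT replicate 3 (diamond) is the WT library nearest to CML, at 68.6 CPM for Psma3 and 5.61 CPM for Psma8.

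In the beta ring 0 of 7 tested genes passed (edgeR; 1 at an unadjusted p under 0.05, and 0 with DESeq2 and limma-voom). Psmb5, which carries the chymotrypsin-like site and is the main target of bortezomib, was at 77.96, 72.4 and 67.2 CPM in CML and 65.8, 66.1 and 82.9 CPM in WT. These ranges overlap, and the log2 fold change was 0.02 (95% interval -0.25 to 0.29). Psmb6, with the caspase-like site, was at 64.9, 52.7 and 57.1 CPM in CML and 54.5, 55.8 and 66.0 CPM in WT (-0.01, interval -0.29 to 0.26). Psmb7, with the trypsin-like site, was at 57.6, 51.2 and 53.0 CPM in CML and 58.1, 58.1 and 68.4 CPM in WT. Its CML values all lay just below WT (log2 fold change -0.19, adjusted p = 0.303, edgeR).

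The structural beta genes had log2 fold changes of -0.08 for Psmb1, -0.10 for Psmb4, -0.21 for Psmb3 and -0.26 for Psmb2. Psmb2 was the one with an unadjusted p under 0.05, and its groups did not overlap (65.7 to 73.4 CPM in CML, 78.9 to 88.9 CPM in WT). Psmb11, the catalytic subunit of thymic epithelium, had 0 to 4 counts per library and was not tested. It lies 3410 bases from Psmb5 on chromosome 14, on the opposite strand.

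The catalytic genes left out of the members are their counterparts in the immunoproteasome, which replaces these subunits in cells exposed to interferon. Within each library Psmb9 was at 0.87, 0.97 and 1.00 counts per count of Psmb6 in CML and at 0.69, 0.74 and 0.69 in WT. Psmb10 was at 0.53, 0.56 and 0.56 per count of Psmb7 in CML and at 0.40, 0.40 and 0.35 in WT. Both ratios were higher in every CML library than in any WT library (exact two-sided permutation test p = 0.1, the smallest that 3 against 3 allow; 0.15 adjusted over the 3 ratios). These ratios do not remove the GC trend: the transcript of Psmb10 has 56.5% GC and that of Psmb7 40.8%. With GC and length trends removed, the log2 fold change was 0.23 for Psmb10 and -0.05 for Psmb7, against 0.34 and -0.19 as fitted. For Psmb9 and Psmb6 it was 0.24 and 0.01, against 0.40 and -0.01. Psmb8 was at 2.36, 2.02 and 2.31 per count of Psmb5 in CML and at 1.86, 2.06 and 1.85 in WT, and these ranges overlap (exact permutation p = 0.2). Psmb9 was at 56.6, 50.8 and 57.0 CPM in CML and 37.6, 41.3 and 45.8 CPM in WT, and was called higher (log2 fold change 0.40, SE 0.12, adjusted p = 0.0379, edgeR). Psmb10 was at 30.3, 28.9 and 29.4 CPM against 23.2, 23.1 and 23.8 CPM and did not pass (0.34, adjusted p = 0.0690, edgeR), nor did Psmb8 (147 to 184 CPM against 122 to 153 CPM, 0.24, adjusted p = 0.219, edgeR). The call of Psmb9 was lost without CML replicate 1, 2 or 3 or WT replicate 1 or 2, with no low-count filter and with GC and length trends removed (adjusted p up to 0.15 in these fits). Psmb9 shares 212 exon bases with Tap1 on the other strand, Psmb7 shares 405 with Nek6 and Psmb8 shares 498 with Gm20496. Psmb5 shares 109 with Mir686 on its own strand. The sources used here do not give the strand setting.

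**Figure D4:**
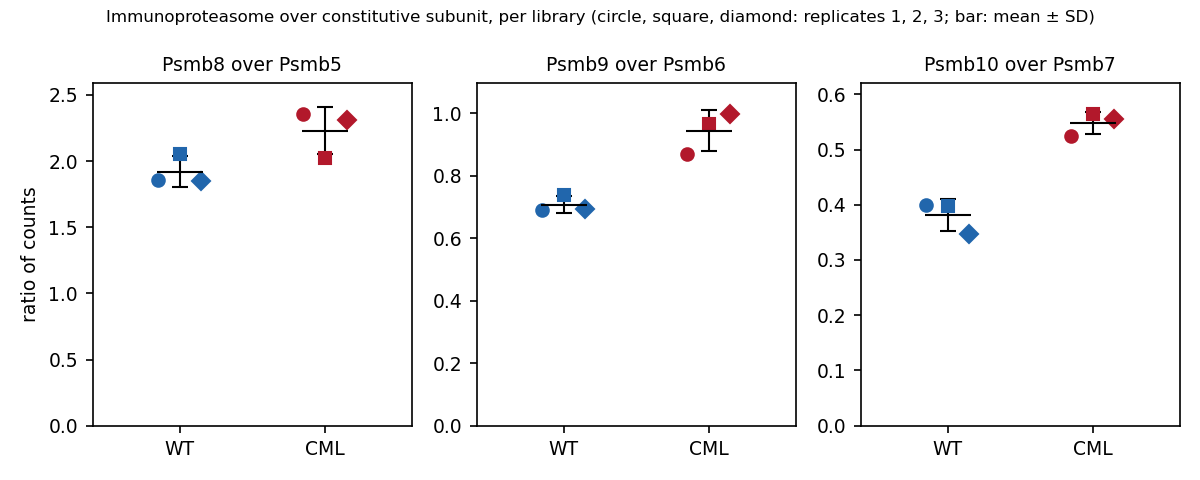
Counts of each immunoproteasome gene per count of the constitutive gene it replaces, per library, with the mean and SD (n = 3 libraries). The ratios of Psmb9 to Psmb6 (0.87 to 1.00 in CML, 0.69 to 0.74 in WT) and of Psmb10 to Psmb7 (0.53 to 0.56 in CML, 0.35 to 0.40 in WT) do not overlap between the groups, and that of Psmb8 to Psmb5 does.

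In the base of the regulatory particle 0 of the 6 ATPase genes and 0 of the 3 other base genes passed (edgeR; 2 of the 9 at an unadjusted p under 0.05, and 0 with DESeq2 and limma-voom). The ATPases form a single ring, and their genes went both ways by sign, 3 up and 3 down. Psmc4 had the largest positive value of the particle, at 81.4, 78.8 and 89.5 CPM in CML and 67.7, 65.0 and 77.2 CPM in WT. Its groups did not overlap, but the difference did not pass (log2 fold change 0.25, SE 0.12, adjusted p = 0.159, edgeR). Psmc6 had the lowest value of the ATPases, at 185, 177 and 168 CPM in CML and 239.7, 227 and 189.6 CPM in WT (-0.31, adjusted p = 0.0923, edgeR). Their transcripts differ in GC content, 52.3% for Psmc4 and 37.0% for Psmc6. With GC and length trends removed the values were 0.17 and -0.12. The remaining ATPase genes had log2 fold changes of 0.12 for Psmc2, 0.06 for Psmc5, -0.04 for Psmc3 and -0.15 for Psmc1.

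The 3 other base genes encode the scaffolds Psmd1 and Psmd2 and the ubiquitin receptor Psmd4. Psmd2 was at 162, 163 and 161 CPM in CML and 151, 137 and 163 CPM in WT (log2 fold change 0.11, 95% interval -0.13 to 0.34). Psmd1 was at 133, 127 and 130.3 CPM in CML and 171, 162 and 135 CPM in WT, with CML below WT in every library and a value of -0.27 (adjusted p = 0.140, edgeR). Psmd4 was at 57.2, 48.6 and 55.3 CPM in CML and 43.1, 40.8 and 57.1 CPM in WT (0.19, adjusted p = 0.393, edgeR). In Psmd4 as in Psmd1, WT replicate 3 lay with the CML libraries and WT replicates 1 and 2 apart from them.

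The lid held the called gene of the particle, Psmd14 (chromosome 2, 61711694 to 61800376, plus strand). It encodes the metalloprotease subunit that cleaves ubiquitin chains from substrates as they enter. Psmd14 was at 183, 157 and 152 CPM in CML and 236, 226 and 190.1 CPM in WT, with CML replicate 1 and WT replicate 3 the nearest to each other across the groups. The log2 fold change was -0.40 (SE 0.12, adjusted p = 0.0406, edgeR). Leaving out any 1 of 4 libraries ended the call: CML replicate 2 gave an adjusted p of 0.141, CML replicate 3 of 0.172, WT replicate 1 of 0.126 and WT replicate 2 of 0.151 (edgeR). It was lost too when scaled by library totals (-0.30, adjusted p = 0.0870, edgeR) and with GC and length trends removed (-0.22, adjusted p = 0.0753, edgeR). As a share of the counts of the 8 lid genes Psmd14 made up 30.3%, 27.7% and 26.1% in CML and 33.9%, 33.9% and 28.9% in WT, and these ranges overlap.

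Of the other 7 lid genes 0 passed (edgeR; 3 at an unadjusted p under 0.05, and 0 with DESeq2 and limma-voom). Psmd6, Psmd7 and Psmd12 stood at -0.28, -0.28 and -0.27 on the log2 scale (adjusted p = 0.125, 0.101 and 0.113, edgeR). In each of them all CML values lay below WT, as in Psmd12 with 43.3 to 46.8 CPM in CML and 54.0 to 56.3 CPM in WT. Psmd3, Psmd8, Psmd11 and Psmd13 were between -0.03 and 0.05. Psmd11, the lowest of the particle per length, was at 44.6, 46.9 and 48.1 CPM in CML and 46.2, 45.6 and 49.5 CPM in WT, with an interval of the log2 fold change from -0.26 to 0.22. With GC and length trends removed the 8 lid genes ran from -0.29 (Psmd7) to 0.13 (Psmd11), with Psmd12 at -0.24, Psmd6 at -0.18 and Psmd3 at -0.17.

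Groups without overlap were found in 19 of the 45 tested members, against 35.0% of all tested genes. In 16 of the 19 the CML values lay below WT and in 3 above, where the background was 16.5% of tested genes below and 18.5% above. The 16 genes were 7 of the core, 6 of the particle and 3 others. In 13 of the 16, WT replicate 3 was the lowest WT library, and in 13 of the 16 CML replicate 1 was the highest CML library. Without WT replicate 3, 9 members were called lower (Psma3, Psma6, Psma8, Psmc6, Psmd1, Psmd7, Psmd14, Psme4 and Psmg2) and Psmc4 and Psmd4 higher (edgeR). Without WT replicate 2, 0 members were called in either direction. The members called thus changed with the WT libraries in the fit.

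The core and the particle were also summed as levels per length, in CPM per kilobase of annotated exon. The core stood at 711, 641 and 651 in CML and 741, 735 and 771 in WT. The particle stood at 442, 414 and 422 in CML and 473, 454 and 464 in WT. For both sums every CML library lay below every WT library, by a log2 ratio of the group means of -0.17 for the core and -0.12 for the particle. With library totals in place of TMM these ratios were -0.07 and -0.02 and the groups overlapped. That scaling moved the median log2 fold change of all tested genes from 0.00 to 0.09. The ratio of core to particle does not depend on scaling and was 1.61, 1.55 and 1.54 in CML and 1.57, 1.62 and 1.66 in WT, ranges that overlap. The log2 ratio of the group means was -0.04, with an SD of 0.04 in WT and 0.03 in CML.

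**Figure D5:**
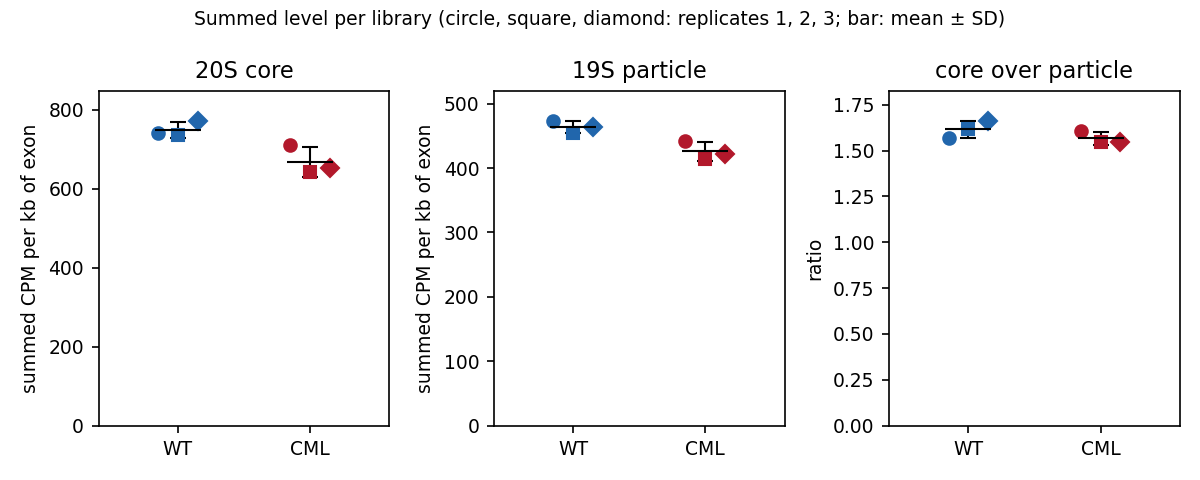
Summed CPM per kilobase of exon of the 20S core and the 19S particle, and their ratio, per library with the mean and SD (n = 3 libraries). The CML sums lie below the WT sums (711 at most against 735 at least for the core), while the ratios of 1.54 to 1.61 in CML and 1.57 to 1.66 in WT overlap.

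Although core subunits are built into the barrel in equal numbers, their transcripts were not at equal levels. Over both groups, the 14 constitutive core genes ranged from 16.1 CPM per kilobase of exon (Psma5) to 153 (Psma6), with a median of 28.2. The lowest value is that of the gene counted beside its copy, and in CML alone Psma3 (13.5) was below Psma5 (14.6). The 17 genes of the particle ranged from 7.34 (Psmd11) to 67.6 (Psmd14), with a median of 19.7. With the length of the transcript of longest coding sequence in place of all annotated exons, the highest core gene was Psma1 (230.2) and the extremes of the particle were again Psmd14 (124) and Psmd11 (15.7). Psmd14 was thus the highest gene of the particle by either length. The spread between libraries of a group was small: the median SD of log2 CPM over the members was 0.10 in CML and 0.15 in WT, against 0.13 and 0.16 for 9968 tested genes in the same range of level. Of those 9968 genes 18.3% were called.

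Assembly of the core depends on chaperone pairs, and here the third called gene was found. Psmg2 (chromosome 18, 67641599 to 67654162, plus strand) encodes a chaperone that pairs with the product of Psmg1 to build the alpha ring. It was at 65.0, 60.3 and 54.1 CPM in CML and 108, 101 and 72.5 CPM in WT. All CML values lay below WT, and WT replicate 3 lay far below the other WT libraries. The log2 fold change was -0.65 (SE 0.15, adjusted p = 0.00958, edgeR), and it was -0.54 with GC and length trends removed (adjusted p = 0.0191, edgeR). Leaving out CML replicate 3 or WT replicate 2 ended the call, with an adjusted p of 0.0508 and 0.0520 (edgeR). Its partner Psmg1 was at 55.8, 43.4 and 48.3 CPM in CML and 55.3, 53.5 and 62.4 CPM in WT, with overlapping groups (-0.21, adjusted p = 0.278, edgeR). Counts of Psmg2 per count of Psmg1 were 1.17, 1.39 and 1.12 in CML and 1.95, 1.89 and 1.16 in WT, so WT replicate 3 fell within the CML range. Psmg3 and Psmg4, which form the other pair, had log2 fold changes of -0.19 and -0.09 and far fewer counts (78 to 309 per library).

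The 19S chaperones, which bind ATPases while the base is built, did not pass (0 of 3, edgeR). At an unadjusted p under 0.05 there were 0, and 0 passed with DESeq2 and limma-voom. Psmd10, also known as gankyrin, had a log2 fold change of 0.20, Psmd9 of 0.03 and Psmd5 of -0.22. Psmd5 was at 130.0 to 154 CPM in CML and 166 to 169 CPM in WT without overlap (adjusted p = 0.184, edgeR). Psmd9 shares exon sequence with a gene on the other strand, so its value is uncertain.

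The alternative activators open the core without the 19S particle, and 0 of 5 passed (edgeR; 0 at an unadjusted p under 0.05, and 0 with DESeq2 and limma-voom). Psme1, an interferon-induced subunit of the 11S ring, was at 74.3, 79.5 and 84.4 CPM in CML and 73.1, 69.8 and 89.7 CPM in WT (log2 fold change 0.03, 95% interval -0.24 to 0.30). Its partner Psme2, which lies 5911 bases from it on chromosome 14, was at 12.7, 12.3 and 12.8 CPM in CML and 10.6, 11.1 and 12.1 CPM in WT (0.16, adjusted p = 0.509, edgeR). Psme2b, a near-copy of Psme2 on chromosome 11, took more counts than Psme2, at 63.8, 69.7 and 72.7 CPM in CML and 58.6, 62.6 and 74.3 CPM in WT (0.08). Reads shared by Psme2 and Psme2b may have been split, so neither level stands alone. The groups overlapped in their sum (0.09, SE 0.12, adjusted p = 0.654, edgeR).

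The nuclear activators pointed lower without passing. Psme3, which forms the nuclear 11S ring, was at 138, 138 and 156 CPM in CML and 168, 168 and 161 CPM in WT (-0.20, adjusted p = 0.221, edgeR). Psme4, which encodes PA200, was at 271, 268 and 283 CPM in CML and 418, 334 and 256 CPM in WT (-0.30, adjusted p = 0.216, edgeR). The WT libraries of Psme4 were spread more widely than the gap between the groups, and WT replicate 3 was the lowest of all 6. Psmf1, which encodes the regulator PI31, had the largest positive fold change of all members, at 43.5, 46.2 and 48.5 CPM in CML and 35.6, 38.1 and 39.4 CPM in WT. Every CML library was above every WT library, and the value did not pass (0.29, SE 0.11, 95% interval 0.04 to 0.54, adjusted p = 0.102, edgeR).

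Genes around the proteasome were read from lists of partners. Of the 2 subunits without a Psm symbol 0 passed (edgeR; 0 at an unadjusted p under 0.05). The ubiquitin receptor Adrm1 was at 14.9, 15.3 and 15.5 CPM in CML and 12.2, 13.3 and 15.9 CPM in WT. Sem1, a small lid subunit, was at 44.4, 45.7 and 39.4 CPM in CML and 49.2, 46.1 and 37.0 CPM in WT. Pomp, which matures the core, was at 48.1, 47.7 and 48.8 CPM in CML and 38.5, 43.5 and 50.8 CPM in WT (log2 fold change 0.12, adjusted p = 0.545, edgeR). Nfe2l1, the factor that raises proteasome genes, was at 114, 107 and 109.5 CPM in CML and 91.8, 81.1 and 95.04 CPM in WT, without overlap and without passing (0.30, adjusted p = 0.0750, edgeR). With GC and length trends removed Nfe2l1 was at 0.13 (adjusted p = 0.377, edgeR). It passed with library totals (0.40, adjusted p = 0.0271, edgeR) and without WT replicate 3 (0.35, adjusted p = 0.0304, edgeR). Nfe2l2, a related factor, was at 74.4, 87.4 and 85.6 CPM in CML and 88.4, 79.7 and 84.9 CPM in WT (-0.03, adjusted p = 0.879, edgeR). Of the 10 genes in this list of regulators and assembly factors 1 was lower and 0 higher in CML: Ngly1, the glycanase that NFE2L1 needs to become active. Ngly1 was at 133, 108 and 109 CPM in CML and 183, 186 and 159 CPM in WT (-0.59, SE 0.12, adjusted p = 0.00554, edgeR), and passed under all 16 alternatives run.

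Among deubiquitinases, ligases and shuttle factors that bind the proteasome 4 of 12 tested genes fell and 0 rose, where 7.20% of all tested genes were lower and 10.2% higher. Usp14, a deubiquitinase that trims chains on the particle, was at 376, 355 and 386 CPM in CML and 601, 583 and 452 CPM in WT (-0.55, adjusted p = 0.0111, edgeR). Rad23b, a shuttle factor, fell by 0.53 on the log2 scale (adjusted p = 0.0169, edgeR) and Zfand5, a proteasome-binding zinc finger protein, by 0.50 (adjusted p = 0.0226, edgeR). The fourth was Uchl5, the other deubiquitinase of the particle, named after its value was seen (-0.49, adjusted p = 0.0449, edgeR). Of 9 genes for ubiquitin and its activation 2 fell and 1 rose. Uba6, an activating enzyme, fell by 0.58 (adjusted p = 0.0118, edgeR), and Rps27a, a ubiquitin fusion gene, fell by 0.47 (adjusted p = 0.0264, edgeR). The main activating enzyme Uba1 overlapped between the groups (306 to 358 CPM in WT, 322 to 332 CPM in CML). Usp14, Rad23b, Zfand5, Uchl5, Uba6 and Rps27a each missed the threshold without WT replicate 2, and each also without at least 1 other library: CML replicate 2 for all but Uba6, and CML replicate 3 for Uba6. Uchl5 was also lost with limma-voom (adjusted p = 0.0641), library totals (0.0854, edgeR), a minimum mean of 50 counts (0.0512, edgeR) and GC and length trends removed (-0.28, 0.0901, edgeR). Rps27a was also lost with library totals (adjusted p = 0.0834, edgeR) and with GC and length trends removed, where its log2 fold change was -0.24 (0.203, edgeR). Together with the immunoproteasome genes and the subunits without a Psm symbol, 9 of 36 tested partner genes passed, where 17.4% of all tested genes did. Leaving out 1 library gave between 1 (without WT replicate 2) and 13 (without WT replicate 3).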

How the data were processed

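The authors deposited estimated counts per gene symbol, 1 column per library, not scaled to a common total. The submitters' processing notes name STAR 2.7.3a, Partek 8.0 and mm10. What each did, the annotation, strand handling and how shared reads were divided: not given in the sources used here. Counts were rounded to whole numbers, filtered with filterByExpr of edgeR 4.0.16 (minimum count 10), scaled by TMM and fitted on all genes with the quasi-likelihood test in R 4.3.3 (group as the only term, two-sided, Benjamini-Hochberg adjusted p under 0.05). Each SE is the fold change over the root of its F statistic. Alternatives used other scalings, DESeq2 1.42.0, limma-voom (limma 3.58.1), other filters, a replicate block and each library left out. Coordinates, exon lengths and GC came from GENCODE M21 (GRCm38), which matched all 46 members. On simulated counts for CML against WT (16221 genes), 67, 67 and 66 genes were changed by factors of 1.5, 2 and 4. Of these 20.9%, 67.2% and 98.5% were recovered, and 8.1% of the 135 calls were false. The fit of the real counts called 2820 genes. Its cutoff in unadjusted p was therefore less strict, and the simulated shares do not carry over to it directly. Members, lists and tests were chosen with earlier results of these data known. Values in every library are given for called members, catalytic and immunoproteasome subunits, activators, the extremes by level and by fold change, and the partners Adrm1, Sem1, Pomp, Nfe2l1 and Nfe2l2. Up to 3 called genes per partner list are named; 1 called gene among them is not reported here. Other values were named after they were seen.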

Additional observations from a re-analysis of the deposited data

How the results depend on the processing

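Leaving out 1 library at a time moved the counts of calls most. Over all genes they ran from 1466 (without WT replicate 2) to 4122 (without WT replicate 3), against 2820. In the core 0 to 3 members were called, in the particle 0 to 6, among the other members 0 to 2 and among partner genes 1 to 13. The log2 ratio of CML to WT ran from -0.21 to -0.14 for the summed core and from -0.15 to -0.10 for the particle, and that of their ratio from -0.07 to -0.02. In the core 2 members were called with DESeq2, with limma-voom, with the replicate block and after removal of GC and length trends. In the particle 0 were called with library totals and after that removal. With library totals the summed core stood at -0.06771 and the summed particle at -0.02376 (log2). Same-numbered libraries deviated from their group means with correlations of -0.02, -0.05 and 0.01 over all tested genes. The labels do not state whether the numbers pair the samples, and these correlations cannot settle it. The replicate block added Psma8 (adjusted p = 0.000289, edgeR) to the 3 called members. No member or partner gene that passed in any setting changed sign. At a simulated 1.5-fold change 20.9% of genes were recovered, at a stricter cutoff than that of the real counts. For 40 of the 45 tested members the 95% interval lay within a 1.5-fold change. Psma8 and Psme4, which were not called, had intervals that reached beyond it, so a change of that size may have been missed there. Smaller changes may have been missed in any member. The causes were not tested.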

Other observations

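The members lie on 16 chromosomes, with 9 of them on chromosome 11. Exons of 12 members overlap an exon of another annotated gene, on the opposite strand in 9 of them; Psma3, Psmd14 and Psmg2 are not among the 12. Other rows with a Psm symbol followed by -ps had low levels: Psmb6-ps2 stood at 1.69 to 2.82 CPM, and Psmb5-ps, Psmb6-ps and Psmb7-ps2 were below 0.6 CPM in every library. Copies under other names were not searched.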
